A study of Mus musculus with 6 samples.

Results

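The genes described are the carriers that bring amino acids and small peptides across cell membranes, taken as every gene of the solute carrier families Slc15, Slc6, Slc3, Slc7, Slc1, Slc36, Slc38 and Slc43 that the array platform names. They were chosen by symbol alone, and 66 of the 19505 named genes are members, each with 1 probe set. A further row, Slc7a6os, is a gene on the opposite strand of Slc7a6. It was counted apart and lay below background on all 6 arrays, with a difference of 0.26 (SE 0.42). Expression was measured on 6 Affymetrix arrays, 3 for H-Exo and 3 for L-Exo. H-Exo mice were given fecal exosomes from obese mice kept on a high-fat diet (HFD), and L-Exo mice were given fecal exosomes from lean mice kept on regular chow. Exosomes are small vesicles that cells release, and these were gathered from pooled feces and carried CD63, an exosome marker, and A33, an antigen of the intestinal epithelium. All recipients were C57BL/6J mice fed HFD that received 2000000000 exosomes by mouth each day for 14 days. The age of the recipients is not given in the labels, and none of the 6 arrays came from mice without exosomes. It is not stated whether each array had a mouse of its own. The p-values therefore measure the spread between arrays, which may be technical.

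Values are RMA values on the log2 scale, listed for replicates 1, 2 and 3 in that order, and a difference is the H-Exo mean minus the L-Exo mean. A probe set is called above background where it exceeds 95% of the 5222 negative control probes on its array, a level that lay at 8.34, 7.97 and 8.41 on the H-Exo arrays and 8.19, 8.16 and 8.31 on the L-Exo arrays. The arrays are labelled liver, and the markers went against that label. Of 19 measured hepatocyte markers, 2 were above background on all 6 arrays, Cps1 and Hpd, and 15 were above it on none. Cps1 is also among the enterocyte enzymes listed below. Alb was above background on the 3 L-Exo arrays, with 8.31, 8.26 and 10.72, and on no H-Exo array, with 5.14, 5.47 and 5.86. Its difference was -3.61 (SE 0.61, limma adjusted p = 0.761). Serpina1a was above background on 3 L-Exo arrays and 1 H-Exo array. Of 16 markers of the intestinal epithelium, 14 were above it on all 6 arrays, as were 4 of 5 markers of the ileum and 1 of 10 of the kidney, Cubn. The replicate 1 arrays stood apart from the other arrays, with mean correlations to the other arrays of 0.963 for H-Exo and 0.951 for L-Exo, where the other 4 arrays had 0.971 to 0.975. Markers of B and T cells, of which 0 of 9 were above background on all 6 arrays, were higher in H-Exo for all 9, with a median difference of 1.33. Across arrays, fewer cells of a type and less RNA per cell cannot be told apart.

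Dietary protein reaches the epithelium of the small intestine as free amino acids and as peptides of a few residues. Carriers of the brush border, the apical membrane that faces the gut lumen, take both up, mostly together with sodium or protons, and other carriers of the basolateral membrane pass amino acids on to the blood. Several of these carriers work in pairs, where a heavy chain of the Slc3 family brings a light chain of the Slc7 family to the membrane. Carriers of the same families serve other tissues, as the hepatocyte carriers that take up glutamine and cationic amino acids, the neuronal carriers that clear transmitters from the synapse, and the lysosomal carriers that return the products of protein breakdown to the cytosol.

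Promoters of 4 carriers are printed here, because these are the members above background on at least 1 array whose listed promoters hold letters recognised by HNF1, CDX2 or HNF4A, factors known to act in intestinal epithelium. The sequences are from RefSeq on build GRCm38.p6 and give the 250 bases before a listed start site, 5′ to 3′ on the strand of the gene. Capitals mark matches on either strand to GTTAAT for HNF1, TTTATNG for CDX2 or CAAAGTCCA for HNF4A, and the matches do not overlap. Slc3a1 lies at chr17:85028097-85028346 on the plus strand, with the CDX2 letters 73 and the HNF4A letters 39 bases before the start. Slc6a20a lies at chr9:123678833-123679082 on the minus strand, with the HNF1 letters 56 bases before the start. Slc7a7 lies at chr14:54409473-54409722 on the minus strand, with the HNF1 letters 86 bases before the start. Slc7a15 lies at chr12:8599067-8599316 on the minus strand, with the HNF1 letters 183 bases and the CDX2 letters 196 and 45 bases before the start.
Slc3a1: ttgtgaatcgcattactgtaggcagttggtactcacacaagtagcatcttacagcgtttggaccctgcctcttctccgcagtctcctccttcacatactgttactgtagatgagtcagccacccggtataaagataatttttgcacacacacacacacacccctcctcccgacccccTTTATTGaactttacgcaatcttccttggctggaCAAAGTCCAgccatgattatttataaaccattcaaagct
Slc6a20a: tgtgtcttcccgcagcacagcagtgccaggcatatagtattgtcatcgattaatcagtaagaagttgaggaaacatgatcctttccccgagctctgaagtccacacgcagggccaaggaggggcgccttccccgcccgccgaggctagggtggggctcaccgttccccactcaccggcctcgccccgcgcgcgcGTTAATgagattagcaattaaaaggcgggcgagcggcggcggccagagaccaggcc
Slc7a7: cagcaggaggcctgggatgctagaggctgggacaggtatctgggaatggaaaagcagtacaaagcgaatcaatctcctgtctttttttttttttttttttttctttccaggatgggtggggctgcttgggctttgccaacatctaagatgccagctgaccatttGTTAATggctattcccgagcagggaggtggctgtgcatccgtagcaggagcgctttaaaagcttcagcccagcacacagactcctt
Slc7a15: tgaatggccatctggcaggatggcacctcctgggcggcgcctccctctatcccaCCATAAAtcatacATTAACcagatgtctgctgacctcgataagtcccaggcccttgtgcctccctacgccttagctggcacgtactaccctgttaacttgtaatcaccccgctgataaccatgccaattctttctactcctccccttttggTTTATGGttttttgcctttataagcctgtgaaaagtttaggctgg

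Of the 66 members, 48 had a promoter in the RefSeq table, 18 of them among the 22 members above background on at least 1 array. The HNF1 letters were in a listed promoter of 3 of those 18 genes (16.7%) and of 2 of the 30 matched members below background on all arrays (6.67%). The share was 7.49% of all 27025 genes in the table. Some genes have several listed promoters. Counted by promoter, the HNF1 letters were in 12% of the 25 promoters of the 18 genes, against 6.43% of all 32851 promoters. The CDX2 letters were in 2 of the 18 genes (11.1%) and 0% of the 30, against 11.3% of all genes. The HNF4A letters were found in 1 member, Slc3a1, which is 5.56% of the 18 genes against 0.451% of all genes. TGATGNAA, the letters known for ATF4 with a C/EBP partner, was in 1 of the 18 genes (5.56%) and 2 of the 30 (6.67%), against 3.91% of all genes. These matches describe the sequence, and no binding was measured.

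Most listed brush border carriers of dietary amino acids and peptides were above background, and most listed carriers known from neurons and hepatocytes were not. The hepatocyte list was drawn up after the values had been seen. Of the 66 genes, 17 (25.8%) were above it on all 6 arrays, where 19.1% of all named genes were, 5 were above it on some arrays and 44 (66.7%) on none. The 17 genes were Slc15a1, Slc6a4, Slc6a6, Slc6a8, Slc6a19, Slc6a20a, Slc3a1, Slc3a2, Slc7a7, Slc7a9, Slc1a1, Slc38a1, Slc38a2, Slc38a6, Slc38a9, Slc38a10 and Slc43a2. By family, both Slc3 heavy chains were above background on all 6 arrays, as were 5 of 11 Slc38 genes, 5 of 19 Slc6 genes, 2 of 15 Slc7 genes and 1 each of the 5 Slc15, 7 Slc1 and 3 Slc43 genes. None of the 4 Slc36 genes, a family of amino acid carriers of which several are driven by protons, was above background on any array. Per array, 19, 22 and 21 members were above background in H-Exo and 18, 22 and 20 in L-Exo. With a stricter level, above 99% of the negative control probes, 5 genes stayed above it on all 6 arrays, Slc15a1, Slc6a8, Slc6a19, Slc6a20a and Slc3a1.

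**Figure D1:**
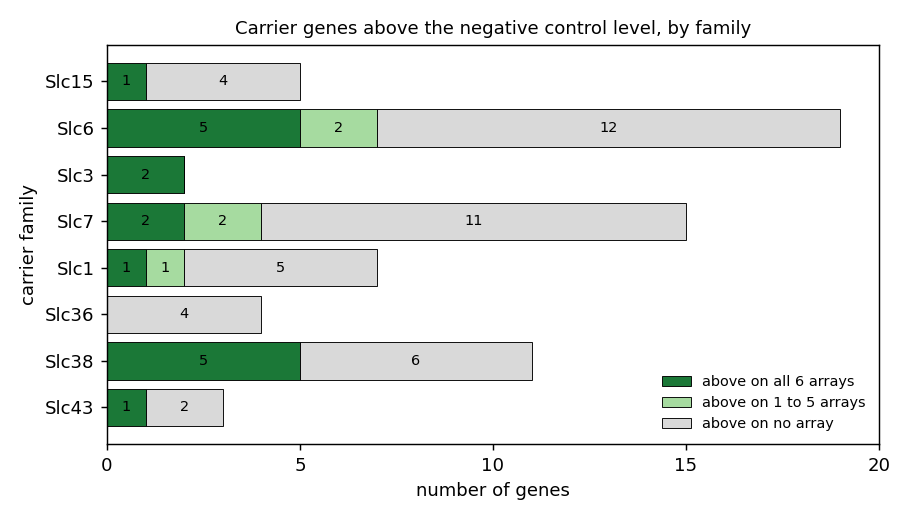
Number of carrier genes (x axis) in each solute carrier family (y axis), split into those above the negative control level on all 6 arrays, on 1 to 5 arrays and on none. Both Slc3 genes were above it on all 6 arrays and none of the 4 Slc36 genes was above it on any.

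Brush border carriers made up much of this set. Of 12 genes listed as apical carriers of epithelia, 7 were above background on all 6 arrays, 3 on some and 2 on none. Slc15a1, the proton-coupled carrier that takes up dipeptides and tripeptides, had 15.39, 16.69 and 15.87 on the H-Exo arrays, against 13.42, 16.68 and 17.52 on the L-Exo arrays. The arrays of both groups overlapped and the L-Exo replicate 1 array was the lowest of the 6. The difference was 0.11 (SE 0.90, 95% confidence interval -1.91 to 2.14), and the values had a range of 4.10 over the 6 arrays.

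Slc6a19, the main sodium-coupled carrier of neutral amino acids in the gut and the kidney, had 13.12, 15.47 and 15.21 on the H-Exo arrays, against 12.94, 14.02 and 15.02 on the L-Exo arrays. In each group the replicate 1 array was the lowest, and the difference was 0.61 (SE 0.68), with 0.08 when L-Exo replicate 1 was left out and 1.35 when H-Exo replicate 1 was. Slc6a20a, which carries proline and other imino acids, had 14.26, 15.81 and 16.15 on the H-Exo arrays and 13.25, 15.49 and 16.21 on the L-Exo arrays, a difference of 0.43 (SE 0.75). Slc6a20b, a near copy of Slc6a20a whose probes may share its transcripts, had 8.03, 8.27 and 8.17 on the H-Exo arrays and 7.41, 8.91 and 8.29 on the L-Exo arrays. It was above background on 2 arrays, so its level is uncertain. Both copies overlapped between the groups.

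Slc3a1 and Slc7a9 form the apical carrier of cystine and cationic amino acids, in which Slc3a1 is the heavy chain and Slc7a9 the light chain. Slc3a1 had 13.24, 14.96 and 14.72 on the H-Exo arrays, against 14.31, 13.91 and 13.83 on the L-Exo arrays, a difference of 0.29 (SE 0.45). Its replicate 1 array was the lowest in H-Exo and the highest in L-Exo, unlike Slc6a20a, Slc7a7 and Slc7a15, the other genes with a printed promoter, which were lowest on replicate 1 of both groups. Slc7a9 had 11.35, 12.72 and 11.93 on the H-Exo arrays and 11.34, 12.10 and 12.58 on the L-Exo arrays, with a difference of -0.01 (SE 0.44). Slc7a15, a light chain gene related to Slc7a9, had 6.22, 9.03 and 10.27 on the H-Exo arrays, against 5.65, 9.95 and 10.30 on the L-Exo arrays. It was above background on replicates 2 and 3 of each group and below it on replicate 1 of each group, and the mean of H-Exo minus that of L-Exo was -0.13 (SE 1.29).

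Slc1a1, the apical carrier of glutamate and aspartate, had 11.80, 10.72 and 10.92 on the H-Exo arrays, against 9.64, 10.96 and 11.11 on the L-Exo arrays. Here the H-Exo replicate 1 array was the highest of the 6 and the L-Exo replicate 1 array the lowest, and the difference of 0.58 (SE 0.46) had the smallest unadjusted limma p of the 17 genes above background on all 6 arrays, 0.241 (adjusted p = 0.988). Slc1a5, a carrier of glutamine and other neutral amino acids, had 8.92, 9.64 and 10.13 on the H-Exo arrays, against 7.41, 10.35 and 9.95 on the L-Exo arrays. It was above background on 5 arrays, all but the L-Exo replicate 1 array, and the difference was 0.33 (SE 0.70). Slc6a6, the taurine carrier, had 10.93, 11.03 and 11.45 on the H-Exo arrays and 10.26, 11.21 and 11.85 on the L-Exo arrays, a difference of 0.03 (SE 0.42).

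Slc6a14, a carrier of neutral and cationic amino acids with a wide range of substrates, had the largest standard error among the apical carriers. It had 10.66, 12.24 and 9.75 on the H-Exo arrays, against 14.24, 10.79 and 8.31 on the L-Exo arrays. The L-Exo replicate 1 array was the highest and the L-Exo replicate 3 array the lowest and the only one below background, and the difference was -0.23 (SE 1.25). It came to 1.335 with L-Exo replicate 1 left out and to -1.63 with L-Exo replicate 3 left out. The 2 apical carriers below background on all 6 arrays were Slc36a1, a proton-coupled carrier, and Slc6a18, which is better known from the kidney.

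Basolateral carriers were measured as 8 genes, of which 4 were above background on all 6 arrays, 1 on some and 3 on none. Slc3a2, the heavy chain that pairs with Slc7a7, Slc7a8 and other light chains, had 13.00, 14.45 and 13.88 on the H-Exo arrays, against 11.98, 14.10 and 14.27 on the L-Exo arrays, a difference of 0.33 (SE 0.62). Slc7a7, the light chain that exports cationic amino acids in exchange for neutral ones with sodium, had 12.29, 14.08 and 13.72 on the H-Exo arrays and 12.32, 13.95 and 13.99 on the L-Exo arrays, with a difference of -0.06 (SE 0.58). For both genes the replicate 1 arrays of the 2 groups were the lowest. Slc7a8, the light chain that exchanges neutral amino acids, had 8.24, 10.38 and 10.95 on the H-Exo arrays, against 7.80, 11.22 and 12.20 on the L-Exo arrays. It was above background on replicates 2 and 3 of each group only, and its difference of -0.55 (SE 1.06) went with a spread over the 3 L-Exo arrays of 2.31 (SD).

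Slc43a2, which lets neutral amino acids leave by facilitated diffusion, had 11.23, 12.32 and 11.77 on the H-Exo arrays, against 10.22, 12.07 and 12.60 on the L-Exo arrays. The groups overlapped and the difference was 0.14 (SE 0.58). Slc38a2, a sodium-coupled carrier of small neutral amino acids that cells raise when amino acids are scarce, had 12.20, 12.96 and 13.47 on the H-Exo arrays and 11.71, 12.59 and 12.79 on the L-Exo arrays, a difference of 0.51 (SE 0.42). The basolateral carriers Slc7a1, Slc7a5 and Slc7a6, which bring cationic and large neutral amino acids into many dividing cells, were below background on all 6 arrays.

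**Figure D2:**
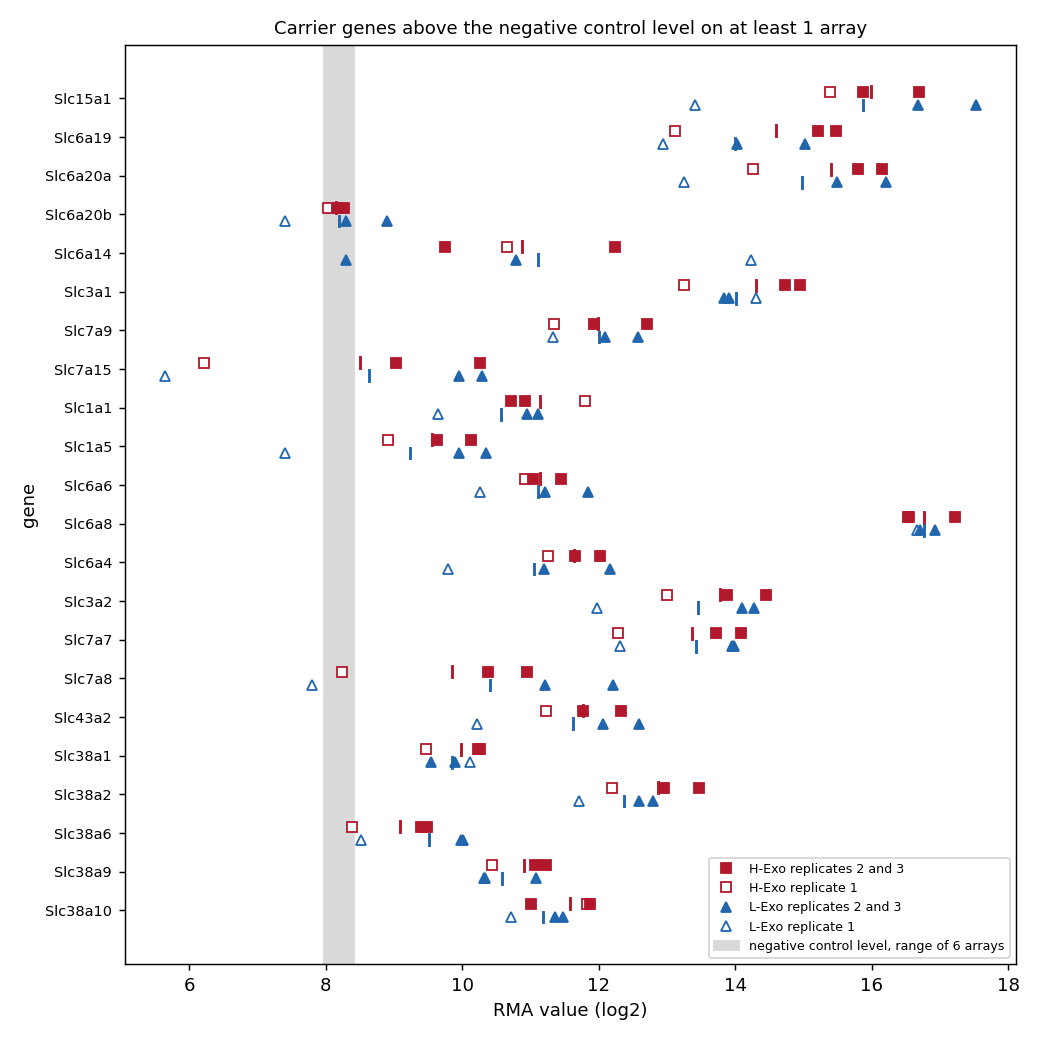
RMA value on the log2 scale (x axis) of the 22 carrier genes above the negative control level on at least 1 array (y axis). H-Exo arrays are squares above and L-Exo arrays triangles below, open symbols are the replicate 1 arrays, short lines the means of 3 arrays and the grey band the control levels of the 6 arrays. The groups overlap for every gene shown, and the open symbols lie lowest for most genes.

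Other carriers above background on all 6 arrays serve compounds close to amino acids or have wider distributions. Slc6a8, the creatine carrier, had 16.54, 17.22 and 16.53 on the H-Exo arrays, against 16.66, 16.93 and 16.71 on the L-Exo arrays. Its range over the 6 arrays of 0.69 was the smallest of the 17 genes, and the difference was -0.00123 (SE 0.31, 95% confidence interval -0.70 to 0.70). Slc6a4, the serotonin carrier, which enterocytes use to clear serotonin from the mucosa, had 11.26, 12.02 and 11.65 on the H-Exo arrays and 9.79, 11.20 and 12.16 on the L-Exo arrays, a difference of 0.59 (SE 0.54). It was the 1 gene of 14 measured neurotransmitter carriers that was above background on all 6 arrays, and the other 13 were above it on none. Those 13 include the carriers of dopamine, Slc6a3, of noradrenaline, Slc6a2, and the main glutamate carriers of glia, Slc1a2 and Slc1a3. None of 8 measured markers of enteric neurons and glia was above background on any array.

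Among the Slc38 genes, Slc38a1, a carrier of glutamine and alanine, had 9.47, 10.26 and 10.23 on the H-Exo arrays, against 10.11, 9.89 and 9.55 on the L-Exo arrays. Slc38a6 had 8.38, 9.40 and 9.48 on the H-Exo arrays and 8.53, 10.01 and 9.99 on the L-Exo arrays, with a difference of -0.42 (SE 0.48), which was -0.07 with H-Exo replicate 1 left out and -0.91 with L-Exo replicate 1 left out. Slc38a9, the lysosomal carrier that signals arginine to the growth regulator mTORC1, had 10.44, 11.22 and 11.07 in H-Exo and 10.32, 10.34 and 11.08 in L-Exo. All 3 genes overlapped between the groups, and the difference was 0.33 (SE 0.35) for Slc38a9 and 0.14 (SE 0.33) for Slc38a1. Slc38a10 had 11.84, 11.88 and 11.01 on the H-Exo arrays and 10.71, 11.37 and 11.47 on the L-Exo arrays, a difference of 0.39 (SE 0.36).

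The listed carriers known from hepatocytes were below background on all 6 arrays. Of 7 such genes, a list drawn up after the values had been seen, 0 were above background on any array. The count does not cover all carriers of hepatocytes, only the 7 genes listed. They were Slc38a3 and Slc38a4, which take up glutamine and other neutral amino acids, Slc7a2, a cationic amino acid carrier, Slc43a1, Slc1a2, Slc6a12 and Slc6a13. Slc38a4 had 4.52, 4.37 and 4.51 on the H-Exo arrays, against 5.06, 4.91 and 4.94 on the L-Exo arrays, with every H-Exo array below every L-Exo array, and Slc7a2 had 3.98, 4.02 and 4.68 on the H-Exo arrays and 4.67, 4.72 and 5.12 on the L-Exo arrays. The differences were -0.51 (SE 0.27) for Slc38a4 and -0.61 (SE 0.32) for Slc7a2, and no fold is given for values below background. Of the 7 genes 6 were lower in H-Exo, as were 18 of the 19 hepatocyte markers, whose mean level was -0.40, -0.29 and -0.42 on the H-Exo arrays and 0.09, 0.23 and 0.79 on the L-Exo arrays, relative to their mean over the 6 arrays. The part of these markers in the carriers' values was not tested.

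No carrier gene differed between H-Exo and L-Exo in limma's test with Benjamini-Hochberg adjustment over all 22206 probe sets. The lowest adjusted p of a member was 0.988, and 0% of all probe sets passed. At an unadjusted p under 0.05 there was 1 member of 66, lower in H-Exo, where 4.06% of all probe sets had such a p, 2.32% higher and 1.74% lower in H-Exo. The median difference over the 66 genes was 0.03, with 34 genes higher and 32 lower, beside a median of -0.01 over all named genes. For 7 members the groups did not overlap, 3 higher and 4 lower in H-Exo, which is about the share among all probe sets, 9.61%. All 7 were below background on all 6 arrays, and an exact permutation test on 3 arrays against 3 cannot give a two-sided p below 0.1.

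**Figure D3:**
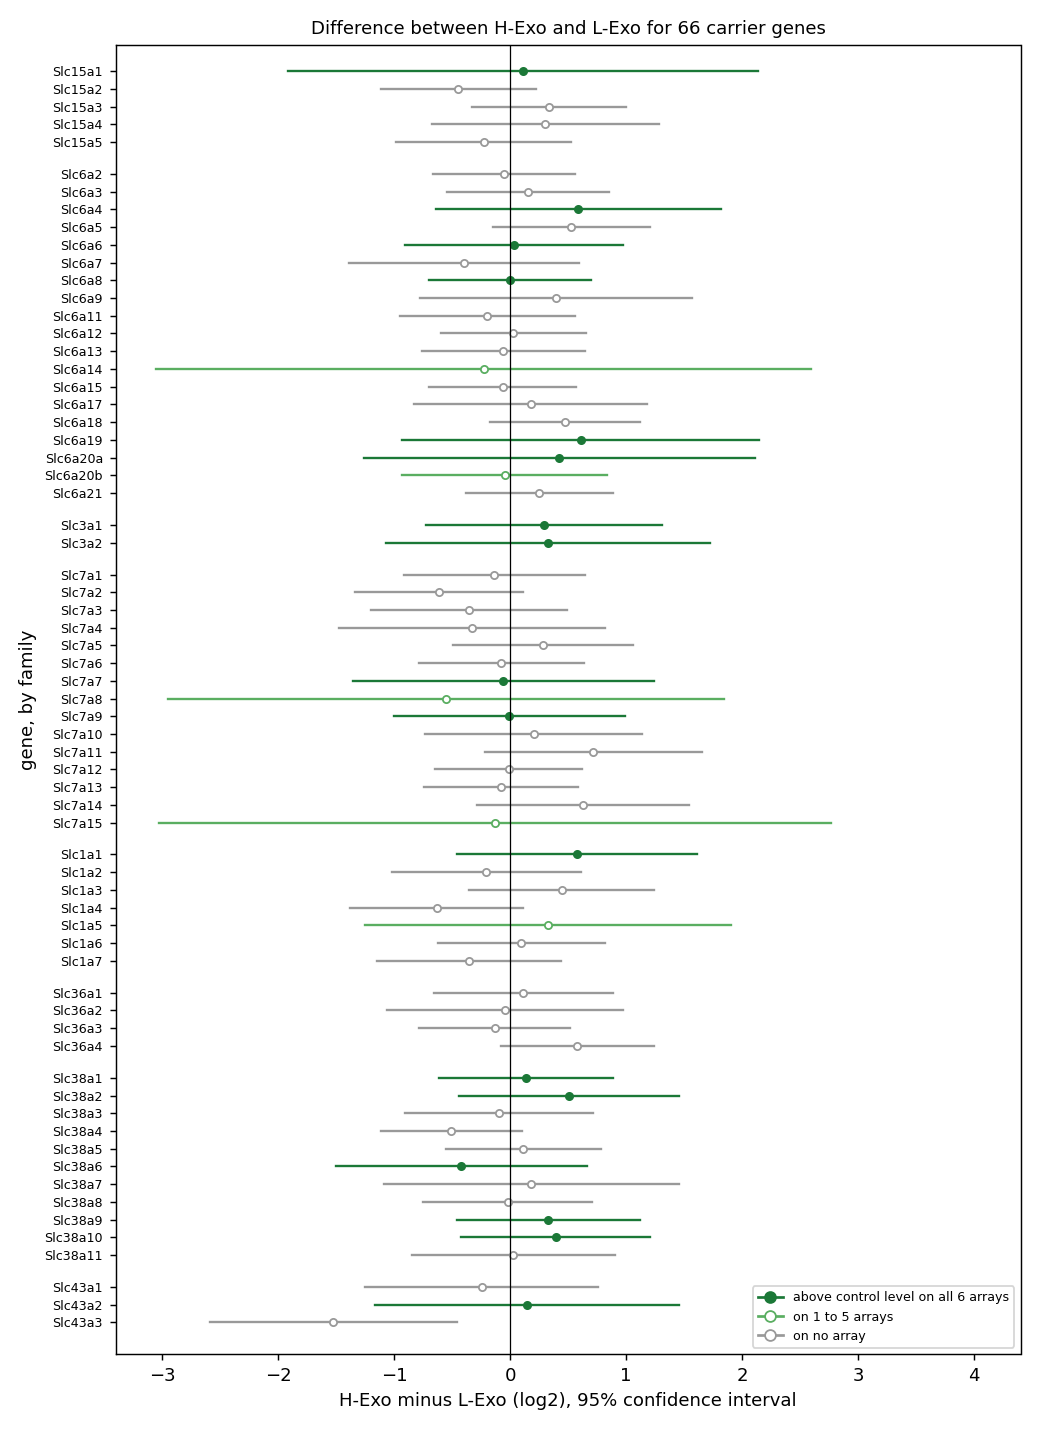
H-Exo minus L-Exo difference on the log2 scale with its 95% confidence interval from limma (x axis) for each of the 66 carrier genes, grouped by family (y axis). Filled dark points are genes above the negative control level on all 6 arrays, open green points those above it on some and open grey points those above it on none. The interval of Slc43a3 alone leaves out 0.

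The member with an unadjusted p under 0.05 was Slc43a3, known as a carrier of purine bases. It had 4.93, 6.42 and 6.27 on the H-Exo arrays, against 8.08, 6.87 and 7.24 on the L-Exo arrays. The 3 H-Exo values were all below the 3 L-Exo values (two-sided p = 0.1 by an exact permutation test), and the difference was -1.52 (SE 0.47, 95% confidence interval -2.59 to -0.46, unadjusted limma p = 0.0101, adjusted p = 0.988). Without both replicate 1 arrays the difference was -0.71. All these values lay within the range of the negative control probes, of which 39.1%, 80.4% and 71.0% were below Slc43a3 on the H-Exo arrays and 94.4%, 84.4% and 88.0% on the L-Exo arrays.

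The other 6 genes without overlap, Slc38a4 among them, had smaller differences. Slc36a4, a carrier of proline and tryptophan, had 5.27, 5.59 and 5.76 on the H-Exo arrays, against 4.73, 5.13 and 5.03 on the L-Exo arrays. Its difference was 0.58 (SE 0.29), and it was the member with the next smallest p (0.0789). Slc1a4, a carrier of alanine, serine and cysteine, had 4.27, 4.61 and 4.67 on the H-Exo arrays and 4.86, 5.69 and 4.90 on the L-Exo arrays, a difference of -0.63 (SE 0.33). Slc15a2, the peptide carrier of kidney and glia, had 3.73, 3.71 and 3.56 on the H-Exo arrays, against 4.50, 3.93 and 3.91 on the L-Exo arrays. Its difference was -0.45 (SE 0.30), that of Slc6a18 was 0.48 (SE 0.29) and that of Slc6a5, the glycine carrier of neurons, was 0.53 (SE 0.30). Of the remaining members with small unadjusted p, Slc7a11, the cystine and glutamate exchanger, had a difference of 0.72 (SE 0.42), and Slc7a14, a lysosomal member of the family, one of 0.63 (SE 0.41). The groups overlapped for both, and both were below background on all 6 arrays.

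The 17 genes above background on all 6 arrays have a measurable level in both groups, and their differences lay between -0.42 and 0.61. Of these genes, 13 were higher and 4 lower in H-Exo, with a median difference of 0.29, and after quantile normalization, which turned Slc6a8 and Slc7a9, 15 were higher and 2 lower. The direction rested on single arrays. The median was -0.05 without the L-Exo replicate 1 array and 0.00 without the H-Exo replicate 2 array. All 17 confidence intervals included 0, and their median width was 2.08. The lowest bound was -1.91, of Slc15a1, and the highest 2.14, of Slc6a19, while Slc6a8 had -0.70 to 0.70. For each gene, changes within its own interval could not be told from none with 3 arrays a group. The 44 genes below background on all 6 arrays were 20 higher and 24 lower, with a median difference of -0.03.

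Lists of carriers by function gave no call either. The 7 lysosomal carriers were all higher in H-Exo, with a median difference of 0.33, and 6 of them were below background on all 6 arrays. With L-Exo replicate 1 left out, Slc15a4, Slc36a1 and Slc38a7 were lower in H-Exo. Slc15a4, the lysosomal carrier of histidine and peptides, had a difference of 0.30 (SE 0.43), and Slc38a7, which carries glutamine out of lysosomes, one of 0.18 (SE 0.56). The 10 carriers induced by ATF4, the transcription factor of the amino acid response, were 6 higher and 4 lower, with a median difference of 0.31. Among them Slc3a2 and Slc38a2 were above background on all 6 arrays and Slc1a5 on 5. The 12 brush border carriers had a median difference of 0.20, 9 higher and 3 lower, and the 8 basolateral carriers one of 0.04, with 4 in each direction. For no list did a member pass the test over all probe sets.

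Within each group the carriers above background were mostly lowest on the replicate 1 array. Of the 22 members above background on at least 1 array, 18 (81.8%) were lowest on replicate 1 among the H-Exo arrays and 19 (86.4%) were lowest on replicate 1 among the L-Exo arrays, and 16 (72.7%) were lowest on both. Of all 6025 named genes above background on at least 1 array, 52.0% were lowest on the H-Exo replicate 1 array, 50.7% on the L-Exo replicate 1 array and 28.8% on both. The median gap between replicate 1 and the mean of replicates 2 and 3 was -0.92 for these members in H-Exo and -1.43 in L-Exo, beside -0.24 and -0.19 for all such genes. Exceptions were Slc6a14, Slc3a1 and Slc38a1, which were highest on replicate 1 of L-Exo, and Slc6a14, Slc1a1, Slc6a8 and Slc38a10, which were not lowest on replicate 1 of H-Exo. The genes were not independent of each other, and the replicate 1 arrays were singled out after the values had been seen.

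Other tissue genes went with the same arrays. Smooth muscle markers, 7 of 8 of them above background on all 6 arrays, had a mean level of 1.52, -0.42 and -1.24 on the H-Exo arrays and 1.27, -0.20 and -0.93 on the L-Exo arrays, each relative to the list's mean over the 6 arrays. Pancreatic acinar markers, 3 of 9 above background on all 6 arrays, had 0.60, -0.68 and -1.25 on the H-Exo arrays and 2.73, 0.05 and -1.46 on the L-Exo arrays. On the same scale the brush border carriers had -0.37, 0.49 and 0.21 on the H-Exo arrays and -0.72, 0.16 and 0.22 on the L-Exo arrays. The smooth muscle and acinar lists were thus highest where the carriers were lowest. Markers of the intestinal epithelium had -0.08, 0.0048 and 0.22 on the H-Exo arrays and -0.44, 0.08 and 0.22 on the L-Exo arrays. Those of the ileum had -0.76, 0.04 and -0.05 on the H-Exo arrays and -0.75, 0.82 and 0.70 on the L-Exo arrays. The part of these marker lists in the carriers' values was not tested. Without both replicate 1 arrays the median difference of the 17 genes was 0.03, and none of the 66 members passed the test.

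**Figure D4:**
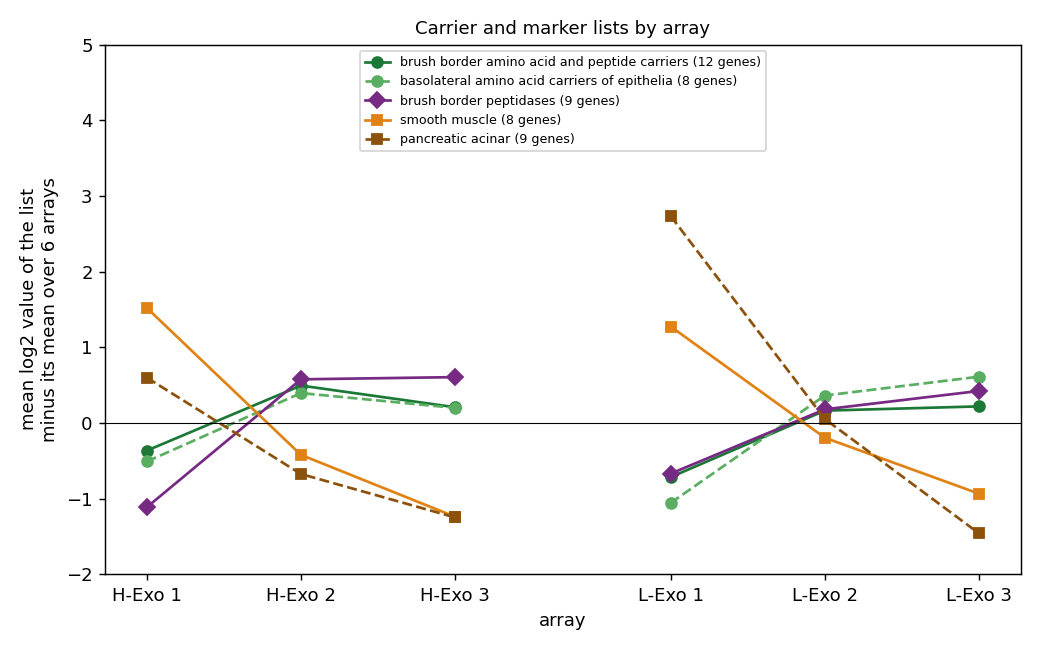
Mean log2 value of 5 gene lists on each array, minus the mean of the list over the 6 arrays (y axis), for the 3 H-Exo and the 3 L-Exo arrays (x axis). The brush border and basolateral carriers and the brush border peptidases lie lowest on the replicate 1 arrays of both groups, and the smooth muscle and pancreatic acinar markers lie highest there.

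Genes that work beside the carriers were read in the same way. Slc9a3, the sodium and proton exchanger of the brush border that keeps up the proton gradient used by Slc15a1, had 10.57, 10.58 and 9.72 on the H-Exo arrays, against 7.55, 7.70 and 8.35 on the L-Exo arrays. The 3 H-Exo values were all above the 3 L-Exo values, and 3 H-Exo arrays and 1 L-Exo array were above background. The difference was 2.42 (SE 0.36, limma adjusted p = 0.637), the largest in size among the genes of the carrier and pathway lists, and among the limma settings run it passed only with array weights (adjusted p = 0.0382). The methods' t-test called it without adjustment and not after Benjamini-Hochberg. The scaffold Pdzk1, which binds the tails of brush border carriers, had 6.66, 9.06 and 9.67 on the H-Exo arrays and 8.42, 10.11 and 10.04 on the L-Exo arrays, a difference of -1.06 (SE 0.75) that shrank to -0.16 with H-Exo replicate 1 left out and was -1.66 with H-Exo replicate 3 left out. Cltrn, the partner of Slc6a19 in the kidney, was below background on all 6 arrays, with a difference of 0.19 (SE 0.36).

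The brush border peptidases, which release the amino acids and peptides that these carriers take up, were above background on all 6 arrays for 9 of 9 measured genes. Of these, 3 were higher and 6 lower in H-Exo, with a median difference of -0.06. Ace, the angiotensin-converting enzyme, had 13.84, 13.27 and 13.09 on the H-Exo arrays, against 11.08, 12.72 and 12.99 on the L-Exo arrays. The groups did not overlap, and the difference of 1.14 (SE 0.50) had an unadjusted limma p of 0.0469 (adjusted p = 0.988). The difference was 0.55 without the L-Exo replicate 1 array and 0.33 without both replicate 1 arrays. Dpp4, a dipeptidyl peptidase, had a difference of -0.79 (SE 0.50), -0.28 with H-Exo replicate 1 left out and -1.24 with H-Exo replicate 2 left out, and Mep1b, a meprin subunit, one of -0.18 (SE 0.30). Of 17 other amino acid carriers of families outside those chosen, 4 were above background on all 6 arrays, and Slc25a22, a mitochondrial glutamate carrier, had the smallest p, with 9.41, 10.11 and 11.13 on the H-Exo arrays, against 9.02, 9.52 and 9.27 on the L-Exo arrays and a difference of 0.95 (SE 0.43), or 0.49 with H-Exo replicate 3 left out. Of the 17 genes, 10 were higher and 7 lower in H-Exo. Slc17a8 had a difference of -0.64 (SE 0.36) and Slc32a1 one of -0.34 (SE 0.33), both below background on all 6 arrays.

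Genes that respond to amino acid supply did not pass the test either. Of 21 genes of the ATF4 response, 10 were higher and 11 lower, and Ddit4, an inhibitor of mTORC1, had a difference of 1.19 (SE 0.40) with 2 arrays above background, both H-Exo. Ddit3, above background on 1 array, had a difference of 0.70 (SE 0.34), or 0.35 with the mean of its probe sets. Chac1, below background on all 6 arrays, had one of -0.46 (SE 0.27), with every H-Exo array below every L-Exo array. Of 21 genes of amino acid sensing by mTORC1, Slc38a9 among them, 7 were above background on all 6 arrays and 9 on none. In this list 4 genes were higher and 17 lower, with differences from -0.76 to 0.92 and a median of -0.24. The groups did not overlap for 4 of the 21, beside 9.61% of all probe sets. Sesn1, a leucine sensor of the sestrin family, had 10.14, 11.18 and 11.27 on the H-Exo arrays, against 11.55, 11.63 and 11.65 on the L-Exo arrays. Its difference was -0.75 (SE 0.36), and Lamtor4 and Rraga, parts of the lysosomal platform that recruits mTORC1, had differences of -0.76 (SE 0.39) and -0.43 (SE 0.28). Single arrays moved the first 2 of these, as Sesn1 had -0.39 with H-Exo replicate 1 left out and Lamtor4 had -0.33 with L-Exo replicate 1 left out. Of 13 measured enzymes of amino acid breakdown in enterocytes, 6 were higher and 7 lower, and Otc, the ornithine carbamoyltransferase of citrulline synthesis, had a difference of -1.14 (SE 0.47, limma adjusted p = 0.988), or -0.56 with H-Exo replicate 1 left out. Prodh had a difference of -0.80 (SE 0.38) and Gpt one of -0.72 (SE 0.40), and the groups overlapped for both.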

How the data were processed

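Total RNA came from 6 samples labelled liver. The series is typed as an array study and its table holds Affymetrix control rows, while the labelling protocol names Ion AmpliSeq beside Affymetrix, so the values were taken as array values. The deposited values are log2 values that the authors obtained by RMA in Transcriptome Analysis Console 4.0, a method that subtracts background, puts arrays on 1 scale and summarises probes. This makes differences relative to the other genes of an array and compresses low values. For its settings and the genome build, the sources used here give nothing. The test left out 5222 negative control probes and 1418 further controls of the 28846 rows. The other 22206 probe sets were fitted in R 4.3.3 by limma 3.58.1 (lmFit, then eBayes, two-sided tests adjusted by Benjamini-Hochberg, threshold 0.05) on the 3 H-Exo and 3 L-Exo arrays, with no covariate. Symbols came from the platform annotation, and 19572 probe sets had 1 symbol. The number of arrays limits precision. The fit was tested on simulated data. Members and lists were chosen with earlier results of these data known. Named genes were all members above background on all 6 arrays, the 10 other members with the smallest p, up to 4 members of each carrier list by brightness and up to 3 genes of each other list by p. Alternatives were another normalization, filters on dim probe sets, other control percentiles, array weights and the methods' t-test. Further ones were a replicate block, the mean of a gene's probe sets and leaving out each array.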

Additional observations from a re-analysis of the deposited data

How the results depend on the processing

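No transporter gene passed limma's test under any alternative run, and the methods' t-test called 3 only without adjustment (Slc36a4, Slc38a4 and Slc6a18) and 0 after Benjamini-Hochberg. For 44 of the 66 genes the signal over background limits what could be seen. Over all probe sets, 10 passed with array weights, 921 had an unadjusted p under 0.05 by the methods' t-test, and 0 to 1 passed when an array was left out. Transporter genes at an unadjusted p under 0.05 numbered 1, against 0 among those above background on at least 3 arrays, 3 by the methods' t-test, 4 with array weights and 1 to 5 when an array was left out, with 5 without L-Exo replicate 1. Genes without overlap numbered 7 of 66, against 4 of 45 without the 30% dimmest probe sets and 0 of 21 above background on at least 3 arrays. They numbered 8 to 15 when an array was left out, where smaller groups overlap less often. The 17 genes above background on all 6 arrays became 5 with the 99th percentile of the controls, 21 with the 90th and 17 to 18 when an array was left out. The median over all 66 genes was -0.0532 to 0.21 when an array was left out, 0.21 without L-Exo replicate 3. Without both replicate 1 arrays, an alternative chosen after seeing the data, 1 probe set passed, 4 transporter genes had an unadjusted p under 0.05 and 23 did not overlap. The share of all probe sets without overlap was not computed for any alternative. The share at an unadjusted p under 0.05 was computed only for the methods' t-test. These counts are therefore not read as a result about the carriers.

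Of 57 named genes, 31 kept their sign and 26 did not. Quantile normalization turned Slc6a8 to 0.0433 and Slc7a9 to 0.0308, and array weights turned Slc15a1 to -0.41, Slc1a5 to -0.39, Slc38a7 to -0.19, Slc43a2 to -0.0869, Slc6a14 to 0.71, Slc6a6 to -0.14, Slc6a8 to 0.031 and Slc7a9 to 0.0884. Leaving out both replicate 1 arrays turned Cltrn to -0.12, Dpp4 to 0.0249, Slc15a1 to -0.82, Slc1a1 to -0.21, Slc1a5 to -0.26, Slc36a1 to -0.16, Slc38a7 to -0.0687, Slc3a2 to -0.0205, Slc43a2 to -0.29, Slc6a14 to 1.45, Slc6a17 to -0.14, Slc6a6 to -0.29, Slc6a7 to 0.0736, Slc6a8 to 0.0574 and Slc6a9 to -0.0136. Leaving out single arrays gave differences of -0.13 to 0.49 for Cltrn, -1.11 to 0.94 for Slc15a1, -0.052 to 0.59 for Slc15a4, -0.59 to 0.88 for Slc1a5, -0.19 to 0.37 for Slc36a1, -0.0128 to 0.40 for Slc38a1, -0.049 to 0.20 for Slc38a5, -0.46 to 0.57 for Slc38a7, -0.0313 to 0.82 for Slc3a1, -0.41 to 0.74 for Slc3a2, -0.56 to 0.63 for Slc43a2, -1.63 to 1.33 for Slc6a14, -0.29 to 0.60 for Slc6a17, -0.44 to 1.04 for Slc6a20a, -0.44 to 0.31 for Slc6a20b, -0.0389 to 1.15 for Slc6a4, -0.39 to 0.40 for Slc6a6, -0.23 to 0.12 for Slc6a8, -0.22 to 0.88 for Slc6a9, -1.62 to 1.02 for Slc7a15, -0.61 to 0.48 for Slc7a7, -1.86 to 0.35 for Slc7a8 and -0.37 to 0.32 for Slc7a9. Among genes that kept their sign, leaving out single arrays also moved the value by over 1.5 times for genes beyond those given in the report, with -0.36 to -0.0106 for Mep1b, -0.55 to -0.25 for Slc15a2, -0.78 to -0.36 for Slc1a4, 0.16 to 0.67 for Slc38a10, 0.18 to 0.85 for Slc38a2, 0.17 to 0.58 for Slc38a9, 0.34 to 1.16 for Slc7a11 and 0.30 to 0.94 for Slc7a14. The same held for Slc17a8 with -0.91 to -0.35, Slc32a1 with -0.51 to -0.14 and Gpt with -0.97 to -0.41. The cause was not tested. The values do not settle whether the replicate numbers pair the arrays. Same-numbered arrays had correlations of their deviations of 0.219, 0.0429 and 0.182. Arrays of unlike numbers had correlations from -0.216 to 0.0849. A replicate block left 0 probe sets past the test, 1 transporter gene at an unadjusted p under 0.05 and every named gene's call as it was.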
